A study of Mus musculus with 10 samples.

Results

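BX523225, AK217121, AI530503, AF416735 and AK018648 are 5 mouse transcripts known here by their GenBank accessions, each with 1 probe and 1 spot on an Arraystar array for long non-coding RNAs. They were chosen by name, from an earlier reading of these same arrays, because their signal differed widely between day 0 and the later days of brown adipocyte differentiation, so every culture value below is a description and carries no test. All 5 probes were found, of 59709 in all. Each was well above background on all 10 arrays, with 0 saturated spots and no outlier flag. BX523225, AK217121 and AI530503 were higher on each later culture day than at day 0, and AF416735 and AK018648 were lower.

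Long non-coding RNAs are transcripts with no recognised protein product, and many of those in the mouse were first met as cDNA clones. Accessions that begin with AK come mostly from the RIKEN full-length cDNA collection, and those that begin with AI or BX mostly from expressed sequence tags, which are single reads from the end of a clone. During differentiation a brown preadipocyte, a fibroblast-like precursor, takes on lipid droplets and the mitochondrial uncoupling protein Ucp1 under transcription factors such as Pparg and Cebpa. Some long non-coding RNAs are known to promote or restrain this programme. The files pair none of the 5 accessions with a gene, and 0 of the 5 matched a RefSeq transcript of assembly GRCm38.p6, so no gene, strand or position is given.

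The groups were brown fat and white fat of wild type, chow-fed mice after saline, white fat of such mice after CL316,243, and cultured wild type brown adipocytes. CL316,243 (CL below) stimulates the β3-adrenergic receptor, the main trigger of heat production in fat, and was given at 1 mg/kg once a day for 7 days by injection into the abdominal cavity, as saline was. Each tissue group had 2 arrays, called biological replicates, and each culture day (0, 3, 5 and 7) had 1. The labels used here give no strain, age or white fat depot, and do not say whether an array was 1 mouse or how the cultured cells were obtained, so p-values measure only the spread between these arrays.

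Values are log2 of the background-subtracted spot signal minus the array's 75th percentile, so 0 is the 75th percentile and a step of 1 is 2-fold. Between 55.2% and 78.3% of probes were well above background on an array, and so were 10.9% to 36.4% of negative control spots, which makes that mark a lenient one. The unscaled 75th percentile was highest on CL replicate 1, at log2 9.19, and 7.74 to 8.71 on the other arrays. All 6 tissue arrays shared a scan. In slide column 1, brown fat lay in rows 1 and 2 and saline white fat in rows 3 and 4, and CL lay in column 2, rows 1 and 2. Brown against white fat therefore cannot be told apart from row, nor CL against saline from row and column. Nor can CL-treated white fat against brown fat be told apart from column. The 4 culture arrays shared another scan and lay in column 1, with days 0, 3, 5 and 7 in rows 1, 2, 3 and 4. Culture day therefore cannot be told apart from row. The number of arrays is 1 limit on precision. Of 32 markers of brown and white adipocytes, their precursors, immune cells, vessels and muscle, 2 were measured under their names (the chemokine genes Ccl21b and Ccl21c) and Ucp1, Adipoq and Pparg were not, so the labelled cell types were not checked against markers.

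The culture course was described first. The scanner's error estimate for the members' single spots on the 4 culture arrays was at most 10.3% of the signal, and 15 other probes with 20 spots each had a median SD between spots of 0.07 to 0.10 (log2) on these arrays. Neither covers the spread between cultures, which 1 array per day cannot show. As the only measure of array-to-array spread for a member, the pooled SD of its replicate tissue arrays was used (3 degrees of freedom): 0.68 for BX523225, 0.21 for AK217121, 0.37 for AI530503, 0.40 for AF416735 and 0.23 for AK018648, all log2. It is the SD of a single array, and a difference between single arrays spreads more widely. A step above the pooled SD is therefore not thereby shown.

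BX523225 passed from a processed signal of 179 at day 0 to 3743 at day 3, 5947 at day 5 and 13664 at day 7, or -0.90, 3.31, 3.83 and 5.27 relative to the 75th percentile. Its level was higher at each later day than at the one before. Day 7 lay 72.0-fold above day 0, and 68.2% of that log2 difference was present at day 3. The step from day 3 to day 5 was 0.51, less than its pooled SD in tissue, and the step from day 5 to day 7 was 1.45. At day 0 its signal of 179 was the dimmest of the 5, beside a 95th percentile of negative control spots of 148 on that array. The 72.0-fold difference and the 68.2% share are therefore uncertain.

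AK217121 stood at 4.82 at day 0 and at 8.17, 8.11 and 8.12 at days 3, 5 and 7, from a processed signal of 9415 to 98207. The 3 later days lay within 0.06 of each other, less than its pooled SD of 0.21. It was 10.2-fold above day 0 at day 3 and 9.86-fold at day 7.

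AI530503 followed the same plateau at a lower signal, with -0.14 at day 0 and 3.04, 3.13 and 3.17 on the later days. It was 9.05-fold above day 0 at day 3 and 9.89-fold at day 7, and its later days also differed by less than its pooled SD. From day 3 to day 7 its log2 difference was 0.13, where that of AK217121 was -0.05 and that of BX523225 was 1.96. With quantile normalization, and in the deposited value table, AI530503 was at -0.06 and AK217121 at -0.36, which exceeds the pooled SD of AK217121, so its plateau is not independent of the scaling.

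AF416735 went from 4.26 at day 0 to -1.53 at day 3, then 0.07 at day 5 and 0.71 at day 7. Its processed signal was 6377, 131, 439 and 577 on these days. The 95th percentile of negative control spots on the day 3 array was 83.1, so the fold at day 3 is uncertain. Day 3 was 55.1-fold below day 0 and day 7 was 11.7-fold below it, so the lowest value came at day 3 and the level was 2.23 higher (log2) by day 7. Both later steps, 1.59 and 0.64, exceeded its pooled SD of 0.40. That is the SD of a single tissue array, and a step between single arrays spreads more widely. The step of 0.64 is therefore not shown to exceed the spread between arrays.

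AK018648 had its lowest value on the same day, with 3.04 at day 0, -1.70 at day 3, -0.54 at day 5 and -0.71 at day 7. It was 26.7-fold below day 0 at day 3 and 13.4-fold below at day 7. The return after day 3 was 1.16 by day 5, and days 5 and 7 differed by 0.16, within its pooled SD. At day 3 its processed signal of 116 was not far above the 95th percentile of negative control spots on that array, 83.1, so that fold is uncertain too.

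**Figure D1:**
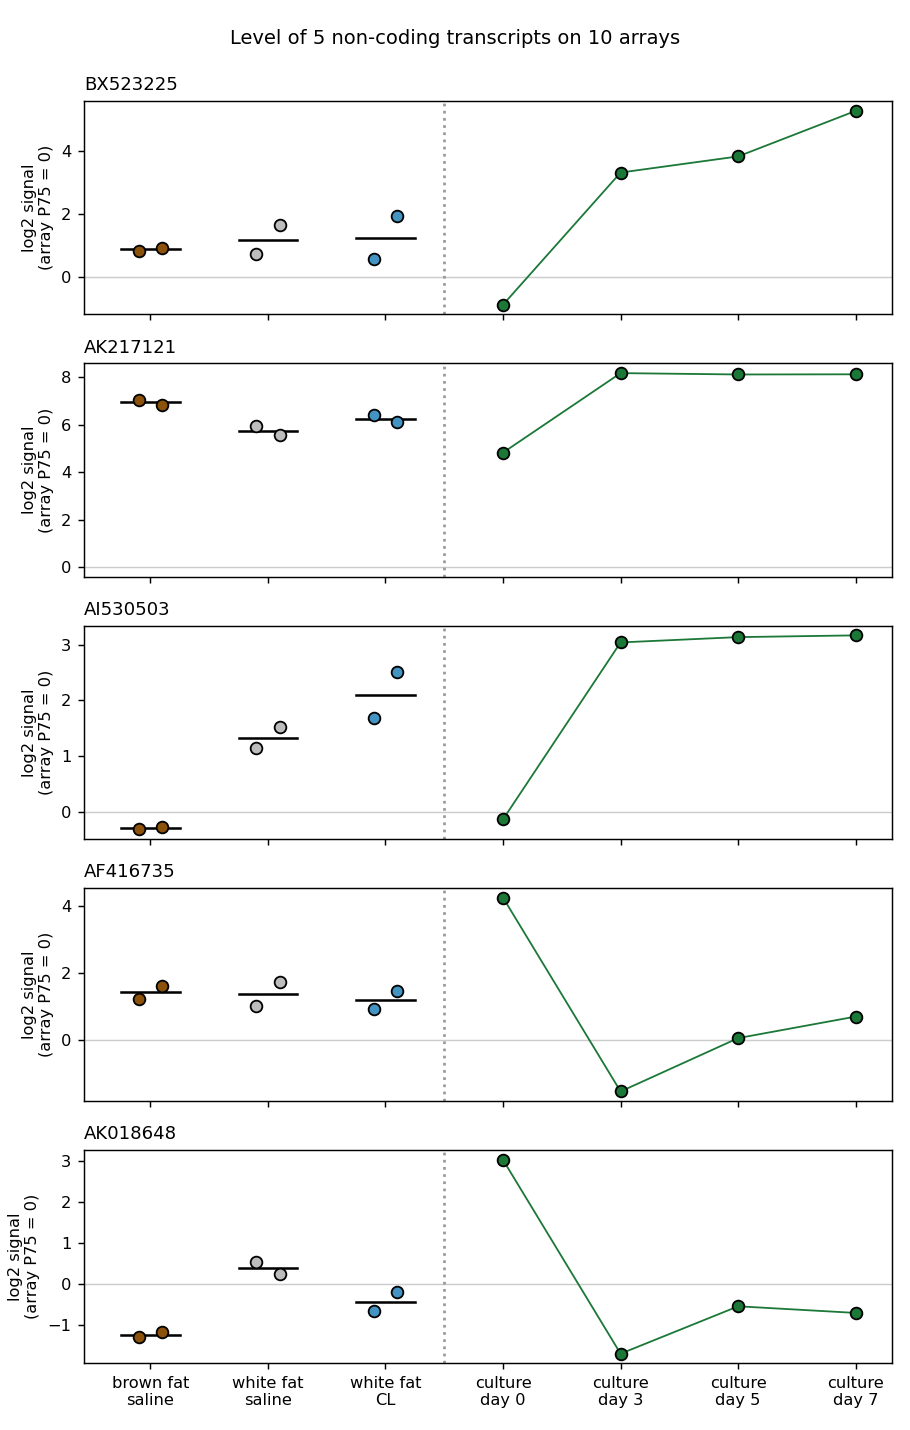
Log2 signal relative to the array's 75th percentile (vertical axis, own range per panel) of the 5 transcripts by group (horizontal axis, days not to scale). Points are arrays, black bars are means of 2 tissue arrays, and green lines join the culture arrays. BX523225 climbs to 5.27 at day 7, AK217121 and AI530503 level off from day 3, and AF416735 and AK018648 are lowest at day 3.

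The share of all probes that moved as the members did sets the scale. Of 48630 probes well above background on at least 1 culture array, 5.35% were at least 2-fold above day 0 on each of days 3, 5 and 7, as 3 members were, and 6.20% were at least 2-fold below on each, as 2 were. Raised probes made up 46.3% of both together, and 53.3% with quantile normalization, 58.8% with median scaling and 65.7% in the value table, so which direction held more probes depended on the scaling. At day 7 alone, all 5 members were at least 2-fold from day 0, as were 21.6% of the probes. These are the values that chose the members, so nothing follows from the counts. After day 3 the courses parted: of the 2602 raised probes, 82.8% were within 2-fold of day 3 at day 7, as AK217121 and AI530503 were, and 9.53% were at least 2-fold higher again, as BX523225 was. Of the 3014 lowered probes, 15.3% were at least 2-fold higher at day 7 than at day 3. AF416735 was among these, and AK018648 missed that line narrowly, at 0.998 on the log2 scale. With quantile normalization, median scaling or the deposited value table it passed, at 1.03, 1.03 and 1.05, and with normexp correction it was at 0.70.

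Among 40660 probes well above background at both day 0 and day 7, 30 (BX523225 included) had a day 7 difference at least as high as that of BX523225, and 304 and 306 reached those of AI530503 and AK217121. On the other side 110 probes lay as low as AK018648 and 154 as low as AF416735. The median of these probes was -0.11, and their central 95% ran from -1.92 to 2.09. Of the 836 that carry a transcript accession or gene symbol, BX523225, AI530503 and AK217121 held ranks 1, 2 and 3 among the rises and AK018648 and AF416735 ranks 1 and 3 among the falls. The members were chosen from these same culture values, so their places here follow from the choice and are no evidence. Compared with day 0 at day 3, where 42636 probes were measured on both days, 54 probes lay as low as AF416735 and 129 as low as AK018648.

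**Figure D2:**
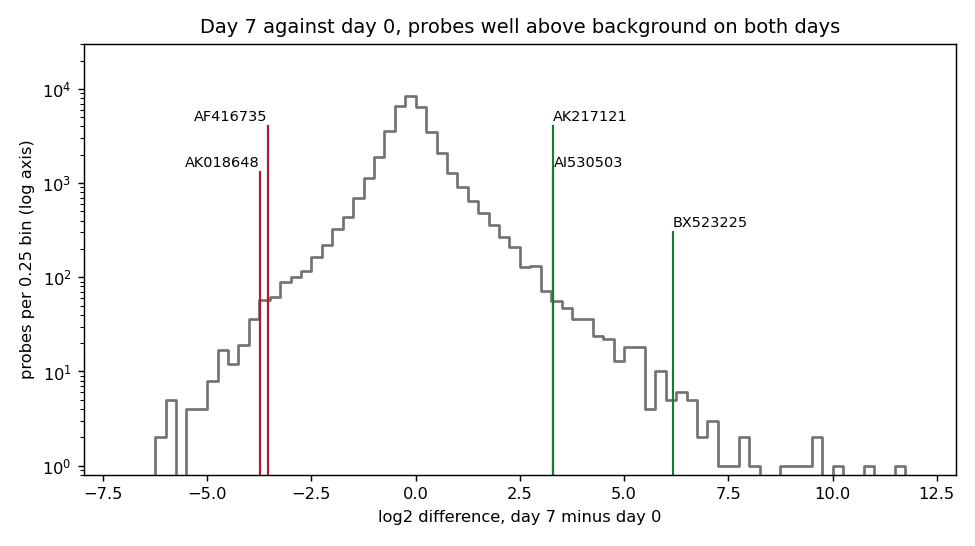
Number of probes per bin of 0.25 (vertical log axis) by log2 difference between day 7 and day 0 (horizontal axis), for the 40660 probes well above background on both days. Vertical lines mark the 5 transcripts. BX523225 lies at 6.17, AK217121 and AI530503 almost together at 3.30 and 3.31, and AF416735 and AK018648 at -3.55 and -3.74, all outside the central 95% of probes. The transcripts were chosen from these same culture values.

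The direction of the differences from day 0 did not depend on the processing. The sign of small steps after day 3 did. From day 3 to day 5 AK217121 differed by -0.06 in the main processing and by 0.11 with median scaling. Across normexp correction, quantile normalization, median scaling and the deposited value table, the day 7 difference ran from 5.70 to 6.35 for BX523225, 3.01 to 3.48 for AK217121, 2.99 to 3.48 for AI530503, -3.42 to -3.34 for AF416735 and -3.70 to -3.40 for AK018648. The day 3 difference of AF416735 was -5.12 with normexp and between -5.65 and -5.58 with the other 3. That of AK018648 was -4.10 with normexp and -4.74 in the main processing.

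**Figure D3:**
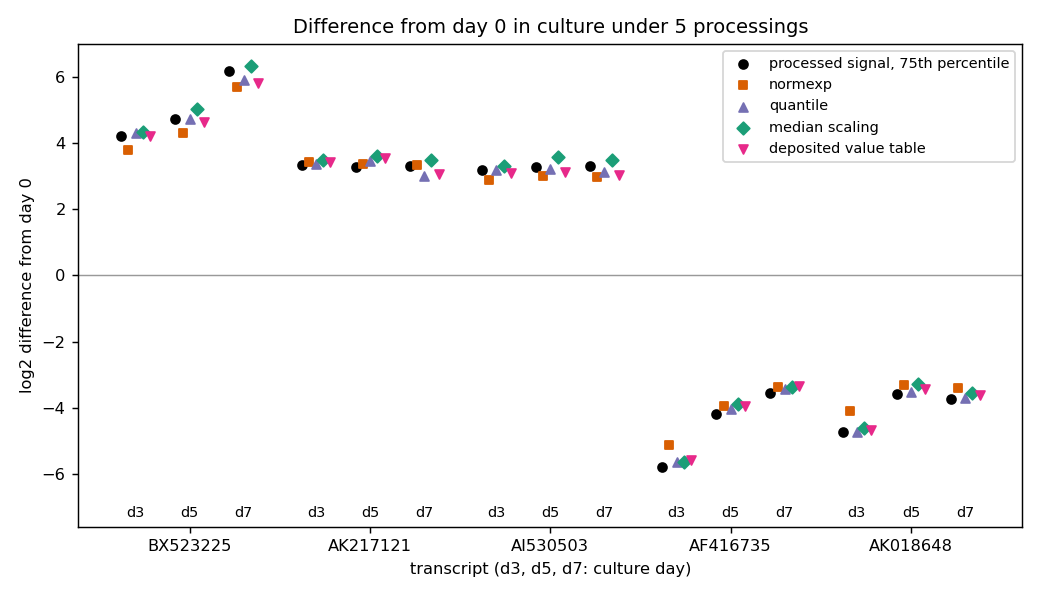
Log2 difference from day 0 (vertical axis) at days 3, 5 and 7 for each transcript (horizontal axis), with 1 marker per processing and no replicates. No difference changes sign. The normexp square stands apart from the other markers at day 3 for AF416735 (-5.12 against -5.78 in the main processing) and AK018648 (-4.10 against -4.74).

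The tissue arrays were not used to choose the members, and they were tested in 1 limma model over all 3 tissue groups, with Benjamini-Hochberg adjustment over 43542 probes, two-sided. They come from bulk tissue, where fewer cells of a type and less RNA per cell cannot be told apart. The brown against white fat comparison asked which transcripts separate the 2 depots. In brown fat, AI530503 and AK018648 were lower than in white fat after saline, and the other 3 members were not called. So 2 of 5 members were called, both lower in brown fat, where 10.4% of all tested probes were called (4.86% lower and 5.53% higher). Of the called probes 53.2% were higher in brown fat, a share that was 62.2% with median scaling, 73.0% in the value table and 43.4% when the CL arrays were not fitted. Part of this was already known from the earlier reading and is not independent evidence.

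AI530503, which was high from day 3 in cultured brown adipocytes, was at -0.32 and -0.29 on the brown fat arrays and at 1.14 and 1.51 on the saline white fat arrays. The groups did not overlap. Brown fat was 3.09-fold lower (log2 difference -1.63, SE 0.41, 95% interval -2.58 to -0.67, limma adjusted p = 0.0477). Its processed signals on the brown fat arrays were 171 and 223, beside 95th percentiles of negative control spots of 114 on both. The fold is therefore uncertain, and with normexp the log2 difference was -1.33. Without any 1 of the 4 saline arrays the call was lost (limma adjusted p from 0.180 to 0.264), and so it was with no filter on dim probes (0.0920).

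AK018648, lowered in culture, was at -1.30 and -1.18 in brown fat and at 0.54 and 0.24 in white fat after saline, again without overlap. Brown fat was 3.09-fold lower here as well (log2 difference -1.63, SE 0.37, 95% interval -2.48 to -0.78, limma adjusted p = 0.0371). Its spots on the brown fat arrays were the dimmest of the 5 members there, at processed signals of 86.8 and 120 beside 95th percentiles of negative control spots of 114 on both arrays, so its brown fat level lies near the background and the fold is uncertain. With normexp the log2 difference was -1.19. The call was lost without any 1 of the saline arrays (limma adjusted p from 0.152 to 0.276) and with no filter (0.0778).

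AK217121 was at 7.04 and 6.83 in brown fat and at 5.94 and 5.56 in white fat after saline. The arrays did not overlap, and the log2 difference of 1.19 (SE 0.36, 95% interval 0.34 to 2.03) missed the threshold at a limma adjusted p of 0.0765. It passed with normexp (0.0396), among probes well above background on all 6 tissue arrays (0.0439), in the 2 saline groups alone (0.0224) and with array weights (0.0102). Leaving out either CL array leaves 1 array in that group. That fit nearly repeats the one of the 2 saline groups alone and is no separate support.

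BX523225 was at 0.81 and 0.93 in brown fat and at 0.71 and 1.64 in white fat, which overlap, with a log2 difference of -0.30 (95% interval -1.57 to 0.97, limma adjusted p = 0.750). AF416735 was at 1.23 and 1.63 in brown fat against 1.01 and 1.74 in white fat, with a log2 difference of 0.05 (95% interval -0.93 to 1.04, limma adjusted p = 0.950). For both, the intervals are too wide to show that the tissues have like levels. The arrays of 3 of 5 members did not overlap in this comparison, as was the case for 72.6% of all tested probes. The same 3 had an unadjusted p under 0.05, beside 29.8% of all tested probes.

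The next comparison asked what 7 days of CL changed in white fat. No member was called, and limma called 0 of 43542 probes. At an unadjusted p under 0.05 there were 0 members and 5.46% of all probes. AI530503 stood at 1.68 and 2.51 after CL, above both saline arrays, with a log2 difference of 0.77 (95% interval -0.18 to 1.73, limma adjusted p = 0.948). AK018648 stood at -0.67 and -0.19, below both saline arrays, with a log2 difference of -0.82 (95% interval -1.68 to 0.03, limma adjusted p = 0.915).

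AK217121 was at 6.39 and 6.10 after CL, also above both saline arrays, with a log2 difference of 0.50 (95% interval -0.35 to 1.34). BX523225 was at 0.56 and 1.93 and AF416735 at 0.95 and 1.48, and their arrays overlapped those after saline, with log2 differences of 0.07 (95% interval -1.20 to 1.34) and -0.16 (95% interval -1.15 to 0.82). In all, 3 of 5 members did not overlap, beside 28.0% of all tested probes. Over all tested probes 35.0% were 2-fold apart between the CL arrays, against 4.42% between the saline white fat arrays and 8.86% between the brown fat arrays.

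Set against brown fat, white fat after CL differs in tissue and in treatment. AI530503 was 5.28-fold higher in it (log2 difference 2.40, SE 0.41, 95% interval 1.44 to 3.36, limma adjusted p = 0.0297). Its brown fat signal was not far above the negative control spots, so this fold is uncertain, and with normexp the log2 difference was 1.99. AI530503 was the only member called, where 3.49% of all tested probes were called and 1.98% were called higher. Of the called probes 56.8% were higher after CL, and 32.8% in the value table. The call was lost without brown fat replicate 1 or 2 (limma adjusted p = 0.197 and 0.126), with no filter (0.0638) and with array weights (0.0842). Rows 1 and 2 of the slides each held a brown fat and a CL array, and the log2 difference was 2.00 within row 1 and 2.80 within row 2. The brown fat arrays lay in column 1 and the CL arrays in column 2. Differences within rows, and a row block, therefore still hold column. With slide row as a block the limma adjusted p was 0.00963, but that fit gave all 5 members 1 common SE, so the spread of AI530503 itself did not enter it. AK018648 was higher by 0.81 (95% interval -0.05 to 1.66, limma adjusted p = 0.241) and AK217121 lower by log2 -0.69 (95% interval -1.53 to 0.15, limma adjusted p = 0.303), and neither was called. BX523225 and AF416735 had log2 differences of 0.37 and -0.22, with arrays that overlapped. In all, 3 of 5 members did not overlap, beside 49.7% of all tested probes, and 1 had an unadjusted p under 0.05, beside 22.7%. This comparison shares the brown fat arrays with the first and the CL arrays with the second.

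**Figure D4:**
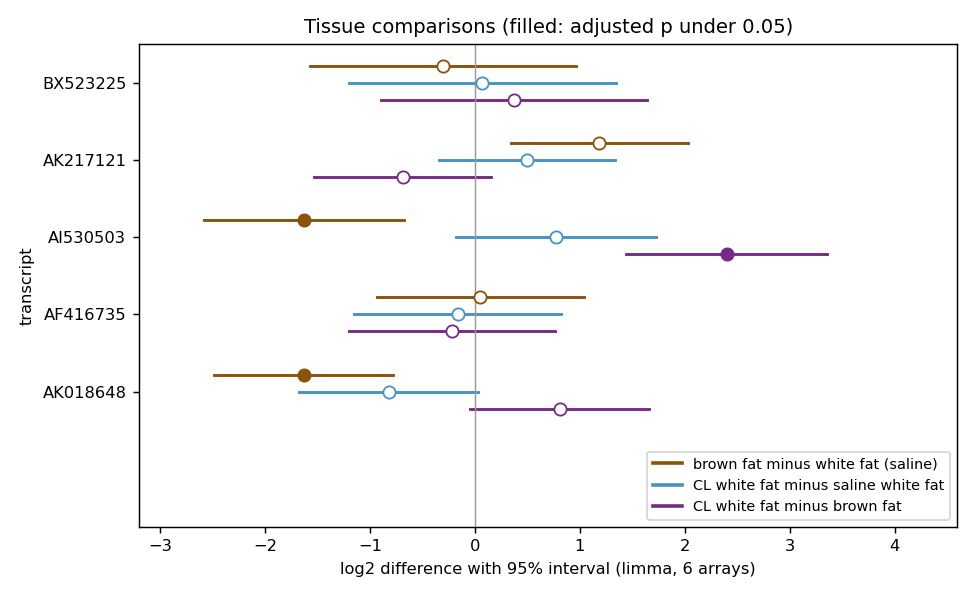
Log2 difference with its 95% interval (horizontal axis) for each transcript (vertical axis) in the 3 tissue comparisons, 2 arrays per group. Filled circles passed an adjusted p under 0.05 and open circles did not. AI530503 in 2 comparisons (-1.63 and 2.40) and AK018648 in brown against white fat (-1.63) are filled, and the intervals of BX523225 and AF416735 all span 0.

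Culture and tissue values stand side by side here without a test, because each culture day had 1 array and the culture arrays were scanned apart from the tissue arrays. BX523225 was above all tissue arrays at days 3, 5 and 7 and below all of them at day 0. Its 3 tissue means, 1.24 after CL, 1.17 in saline white fat and 0.87 in brown fat, did not differ beyond its pooled SD. Day 7 lay 4.40 above the brown fat mean on the log2 scale.

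AK217121 was highest on the later culture days, followed by brown fat (6.93 ± 0.15), white fat after CL (6.25 ± 0.20), white fat after saline (5.75 ± 0.27) and day 0 (means ± SD, n = 2 per tissue group). Each gap below the culture plateau exceeded its pooled SD, which is the SD of a single array and no test of the order. White fat after CL was not called against brown fat (gap 0.69, limma adjusted p = 0.303) or saline white fat (gap 0.50, limma adjusted p = 0.984). Its place between these groups is therefore not shown. Day 7 lay 1.19 above brown fat.

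AI530503 had a different order: the later culture days, then white fat after CL (2.10 ± 0.59) and saline (1.33 ± 0.26), then day 0 and brown fat (-0.30 ± 0.02, n = 2 per tissue group). The step between white fat after CL and after saline was not called (limma adjusted p = 0.948), so their order is not shown. Day 0 and brown fat differed by 0.16, less than its pooled SD, while day 7 lay 3.47 above brown fat. On these arrays the transcript was lowest in brown fat and at day 0, and highest on the later culture days. This order across culture and tissue was not tested.

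AF416735 was highest at day 0, by 2.83 above brown fat. The 3 tissue means (1.43 in brown fat, 1.38 in saline white fat and 1.21 after CL) did not differ beyond its pooled SD, and days 7, 5 and 3 lay below all of them in that order. AK018648 was also highest at day 0, by 2.64 above saline white fat (0.39 ± 0.21), which was followed by white fat after CL (-0.43 ± 0.34), days 5 and 7, brown fat (-1.24 ± 0.08, n = 2 per tissue group) and day 3. White fat after CL and day 5, and days 5 and 7, did not differ beyond its pooled SD. Nor was white fat after CL called against saline white fat (limma adjusted p = 0.915) or brown fat (limma adjusted p = 0.241), so its place between them is not shown.

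The probes most like each member were sought among 805 accessions or symbols well above background on at least 5 arrays and with a range of at least 1 (log2). Likeness was Pearson's r over the 10 arrays, which share 1 scan for the tissues and 1 for the culture, and in which the step from day 0 to day 3 weighs heavily. AK217121 was most like AK215547 (r = 0.915), AV271283 (0.874) and CN710360 (0.868). At day 7 these were above day 0 by log2 2.51, 3.14 and 2.86. AI530503 was most like BG079055 (r = 0.904), AI561866 (0.891) and AA981261 (0.883), all lower in brown fat than in saline white fat, by log2 differences of -0.60, -0.54 and -1.59 of the group means. These arrays entered r, so that likeness is no separate finding. At day 7 the 3 were above day 0 by only 0.84, 0.64 and 1.91, beside 3.31 for AI530503. All 3 remained by Spearman's rho, but over the 7 group means AA981261 alone did. BG079055 was dim in brown fat, at -1.63 and -1.99. BX523225 had less close companions in AK028973 (r = 0.886), AK122515 (0.855) and BY055800 (0.840). None of these 3 was among its 3 most alike by Spearman's rho or over the 7 group means.

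AF416735 was most like Actb, the gene of cytoplasmic actin (r = 0.868), then AK018648 (0.820) and Aida (0.815), but over the 6 tissue arrays alone these correlations were 0.28, -0.03 and -0.13. By Spearman's rho 0 of these 3 were among its 3 most alike, and over the 7 group means 1 was, Actb. In the culture course, the log2 difference of Actb from day 0 was -2.24 at day 3, -1.80 at day 5 and -1.16 at day 7, with its lowest value at day 3 as for AF416735 and AK018648. AK018648 was most like Aida (r = 0.912), Csprs (0.890) and BC098462 (0.874), and over the 6 tissue arrays alone r was 0.930 with Aida, 0.886 with Csprs and 0.555 with BC098462. The probes were picked by r over arrays that include these 6, so the tissue values are no separate check. On the brown fat arrays Csprs was at -2.82 and -2.06, below AK018648, which itself lay near the background there. Aida alone was among its 3 most alike by Spearman's rho, and Aida and BC098462 were over the 7 group means. Between day 0 and day 3 the log2 difference was -2.54 for Aida and -4.39 for Csprs.

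**Figure D5:**
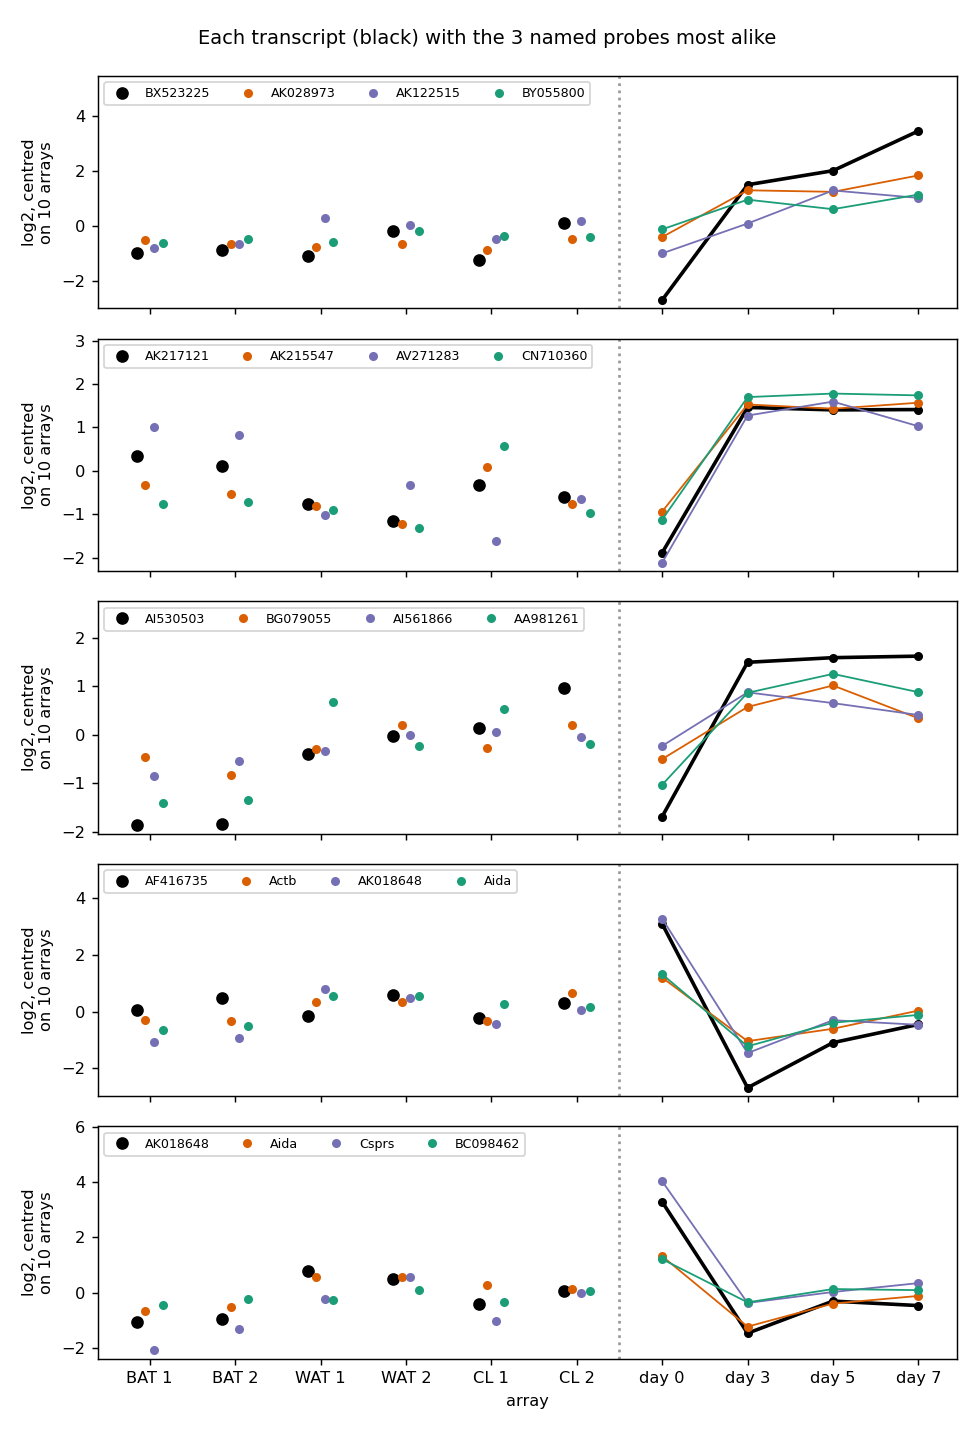
Log2 signal centred on its mean over 10 arrays (vertical axis) for each transcript (black) and the 3 named probes most like it (colours) on each array (horizontal axis). BAT and WAT are brown and white fat after saline and CL is white fat after CL, with replicates 1 and 2. Lines join culture days, and the drop of AF416735, AK018648, Actb, Aida and Csprs at day 3 and their partial return can be followed.

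Genes often used as references moved less than the members in culture. At day 7 against day 0, Ppia differed by log2 -0.02, Hprt by -0.13, B2m by -0.29, Gapdh by 0.44 and Tbp by -0.83, and Gk, glycerol kinase, by -0.14, each on 20 spots. At day 3, where AF416735 and AK018648 were lowest, Ppia, Hprt, Tbp, Gk and B2m differed by -0.29, -0.32, -0.37, -0.57 and -0.58, Gapdh by 0.41 and Actb by -2.24. Whether the fall of Actb has a part in the values of AF416735 or AK018648 was not tested.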

How the data were processed

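RNA of 10 samples was hybridised to 1-colour Cy3 arrays, 1 per sample. Per the file headers, the authors' spot intensity values and flags (scored 0 or 1) come from Agilent Feature Extraction 11.0.1.1, while the submitters' processing notes name 9.1. The deposited value table holds log2 values whose normalization is not given in the sources used here, and it was an alternative. The array design is annotated on mm9, per the file headers, and no coordinates were used.

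The analysis used limma 3.58.1 in R 4.3.3. Control and outlier spots were left out, spots of a probe were averaged on the log2 scale, and each array's 75th percentile was subtracted. A probe was tested in tissue if 1 or more groups had both arrays well above background (lmFit and eBayes, group means only, 3 residual degrees of freedom, adjusted p under 0.05), a fit checked on data made with known differences. The members and lists were chosen with earlier results of these data known. All members were described. The other named probes are the reference genes and the 3 probes most like each member by Pearson's r. Alternatives were normexp (offset 50, on median signals), quantile and median scaling, the value table, 2 other filters, other fits and leaving out arrays. Slide row and array weights were added after the data were seen.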

Additional observations from a re-analysis of the deposited data

How the results depend on the processing

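Of the alternative values for the members' 15 tissue differences, 201 kept direction and call, 14 lost a call, 6 gained one and 9 changed sign. Settings that changed only the filter, the block, the weights or arrays outside a comparison left its log2 difference the same by construction. Their kept direction is therefore no check. The gains without a CL array nearly repeat the fit of the 2 saline groups alone. With no filter on dim probes AI530503 (log2 -1.63 in brown against white fat, 2.40 in CL-treated white fat against brown fat) and AK018648 (-1.63) lost their calls, as AI530503 did with array weights (2.40). AK217121 gained a call in brown against white fat with normexp (1.19), with only probes that all 6 tissue arrays measured above background, in 2 groups alone and with array weights (1.19 in each). Leaving out each array in turn, log2 differences ran as follows. Brown against white fat: BX523225 -0.77 to 0.16, AK217121 0.99 to 1.38, AI530503 -1.81 to -1.44, AF416735 -0.31 to 0.42 and AK018648 -1.78 to -1.48. White fat after CL against saline: BX523225 -0.62 to 0.76, AK217121 0.30 to 0.69, AI530503 0.36 to 1.19, AF416735 -0.53 to 0.20 and AK018648 -1.06 to -0.58. CL-treated white fat against brown fat: BX523225 -0.31 to 1.06, AK217121 -0.83 to -0.54, AK018648 0.57 to 1.04, AI530503 1.98 to 2.82 and AF416735 -0.48 to 0.05 (0.049 without CL replicate 1). The 9 reversals were all of BX523225 and AF416735, which were never called. The counts of called probes behind the shares above ran from 321 (without brown fat replicate 1) to 16301 (array weights) beside 4526 in brown against white fat, from 0 to 110 (without saline white fat replicate 2) beside 0 for CL against saline, and from 203 (without brown fat replicate 1) to 11522 (without CL replicate 2) beside 1521 in CL-treated white fat against brown fat.

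The labels share replicate numbers without saying that they mark a shared litter or day. Deviations of same-numbered arrays correlated at -0.02 between brown fat and saline white fat, and at -0.08 between brown fat and CL-treated white fat. Between CL-treated and saline white fat the correlation was 0.50. With the replicate block no member's call changed: the adjusted p of AI530503 was 0.0355 in brown against white fat and 0.0210 in CL-treated white fat against brown fat, and that of AK018648 was 0.0348. With it 1 probe was called between CL and saline.

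In culture 51 of 60 alternative values moved by less than the member's pooled SD and none changed sign. Those that moved further were AF416735 at day 3 (-5.12) and AK018648 at days 3, 5 and 7 (-4.10, -3.31 and -3.40) with normexp, AK217121 at day 7 with quantile normalization (3.01) and at days 5 and 7 in the value table (3.54 and 3.08), and AK217121 and AK018648 at day 5 with median scaling (3.60 and -3.27). The causes were not tested. Raised and lowered probes numbered 1605 and 1568 with normexp, beside 2602 and 3014 in the main processing (all of 48630). In the value table, which held 18959 of these probes, they were 1118 (5.90%) and 583 (3.08%). Among the 38175 probes well above background on all 4 culture arrays 1816 were lowered. Of the 15 most alike probes, 7 remained by Spearman's rho and 6 over the 7 group means.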
